A study of Homo sapiens with 11 samples.

Results

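The histone genes were followed through 74 probe sets, of 53617 on the array, whose array annotation names no gene other than a clustered histone gene. The symbols were those beginning HIST1H, HIST2H, HIST3H or HIST4H and their current replacements (H1-1 to H1-6, H2AC, H2BC, H3C and H4C). This rule reads no expression value, but it was chosen with earlier results of these data known. The probe sets cover 73 of the 24595 genes that the annotation names. Of the 73, 56 lie on chromosome 6, 16 on chromosome 1 and 1 on chromosome 12. By the protein encoded, 6 probe sets belong to the linker histone H1, 17 to H2A, 22 to H2B, 13 to H3 and 15 to H4, and 1 lists H2AC7 together with H3 genes. A single gene is listed for 34 probe sets and several near-identical genes for the other 40, so that the values of the latter cannot be assigned to 1 locus. Such probe sets are called here by their protein and probe set number.

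The cells were MDA-MB-468, an established human breast cancer line grown from a pleural effusion and known for lacking hormone receptors. Control cells (3 arrays) received no treatment, and the others received tumour necrosis factor (TNF) at 40 ng/ml (3 arrays), the plant flavone apigenin at 40 µM (2 arrays) or both at these concentrations (3 arrays), each for 24 h. Total RNA from each was hybridised to 1 GeneChip Human Gene 2.1 ST array. The treatments ask what the cytokine changes and what apigenin changes with or without it.

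Histones H2A, H2B, H3 and H4 form the core around which nucleosomal DNA is wound, and H1 binds the linker DNA between nucleosomes. The clustered genes are the replication-dependent ones: they are transcribed mainly in S phase, and their mRNAs typically end in a stem-loop bound by SLBP in place of a poly(A) tail. Levels of these mRNAs are therefore known to follow the share of cells in S phase, which was not measured here.

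The promoters of histone genes carry short recurring motifs. Printed here are the promoters of the genes listed by called members with 1 or 2 genes, other than H2BP1. Each is the RefSeq (GRCh38.p14) window from 250 bases before to 50 bases after the gene's start, 5′ to 3′ on the gene's strand, with capitals marking the octamer (ATTTGCAT), the TATA box (TATAAA) and the CCAAT box (CCAAT) on either strand. H1-1 lies on the minus strand at chr6:26017738-26018037, H2AC4 lies on the minus strand at chr6:26033569-26033868 and H2AC8 lies on the plus strand at chr6:26216671-26216970. H2BC9 lies on the plus strand at chr6:26251364-26251663 and H2BC14 lies on the plus strand at chr6:27814772-27815071.
H1-1: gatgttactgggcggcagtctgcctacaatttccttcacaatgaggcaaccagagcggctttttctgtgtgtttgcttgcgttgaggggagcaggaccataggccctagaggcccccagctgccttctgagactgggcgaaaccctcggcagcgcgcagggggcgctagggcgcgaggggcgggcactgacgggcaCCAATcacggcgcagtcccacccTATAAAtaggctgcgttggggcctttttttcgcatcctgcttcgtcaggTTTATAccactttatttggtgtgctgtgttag
H2AC4: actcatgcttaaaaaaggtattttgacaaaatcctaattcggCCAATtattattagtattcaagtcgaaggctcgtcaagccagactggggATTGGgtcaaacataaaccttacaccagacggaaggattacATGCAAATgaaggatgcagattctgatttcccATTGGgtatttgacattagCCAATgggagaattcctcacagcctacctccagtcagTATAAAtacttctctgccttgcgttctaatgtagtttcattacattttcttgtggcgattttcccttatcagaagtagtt
H2AC8: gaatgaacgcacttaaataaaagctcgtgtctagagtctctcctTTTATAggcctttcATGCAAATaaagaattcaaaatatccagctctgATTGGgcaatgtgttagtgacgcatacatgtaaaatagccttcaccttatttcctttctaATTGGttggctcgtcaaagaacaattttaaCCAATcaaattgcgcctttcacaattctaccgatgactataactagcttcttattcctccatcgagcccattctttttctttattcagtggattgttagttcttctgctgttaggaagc
H2BC9: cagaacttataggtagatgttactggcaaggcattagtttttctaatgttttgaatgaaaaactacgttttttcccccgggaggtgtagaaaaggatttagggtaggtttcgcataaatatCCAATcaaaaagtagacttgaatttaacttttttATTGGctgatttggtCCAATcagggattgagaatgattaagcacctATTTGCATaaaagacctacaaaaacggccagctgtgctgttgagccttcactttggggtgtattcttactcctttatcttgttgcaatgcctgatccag
H2BC14: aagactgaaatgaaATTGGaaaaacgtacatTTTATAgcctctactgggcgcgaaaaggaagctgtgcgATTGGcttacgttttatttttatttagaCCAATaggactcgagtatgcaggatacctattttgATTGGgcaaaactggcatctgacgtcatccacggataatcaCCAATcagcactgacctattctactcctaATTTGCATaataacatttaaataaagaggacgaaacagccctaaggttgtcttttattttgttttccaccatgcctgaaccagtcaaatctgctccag

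The octamer, the element bound by POU-domain factors such as POU2F1, is present in H2BC14, H2BC9, H2AC4 and H2AC8 and not in H1-1. Promoters were found for 65 of the 73 genes, and 40.0% of these hold an octamer, against 1.8% of all 27305 promoters of the same length. By family, 14 of 18 H2B promoters, 11 of 16 H2A promoters and 1 of 12 H3 promoters hold it, and no H1 or H4 promoter does. Windows of neighbouring genes can overlap, so that the same octamer can count for both genes. Such a pair is H2BC14 (at -48 from the start) and H2AC14 (at -204). The H3 window, that of H3C4, has the same matches as that of H2AC7. The only TATA boxes marked in H2BC14 (at -219) and H2AC8 (at -206) lie on the opposite strand. By position they are those of the neighbours H2AC14 (at -31) and H2BC8 (at -32). A TATA box is found in 66.2% of the histone promoters and in 12.0% of all. A CCAAT box is found in 84.6% against 35.7%, in every H1, H2A, H2B and H3 window and in 3 of 13 H4 windows. A match describes the letters only, and its relation to the changes below was not tested. Of the 73 genes, 66 have another of these histone genes as a neighbour in the RefSeq gene order.

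Values are deposited log2 signals, on which a difference of 1 is a doubling of signal, and levels of different probe sets are not compared. A probe set was tested if at least 2 arrays reached 2.53, the median of the probe set means, which kept 18309 annotated probe sets and 61 of the 74 histone members. A member was called at an adjusted p under 0.05 in limma's moderated test, adjusted over all probe sets tested. The labels do not say that replicates came from separate cultures, so all p-values measure only the spread between these arrays. Pairs of arrays of a group correlated at 0.955 to 0.981 across probe sets. Array apigenin 1 stood apart, with a narrower distribution (interquartile range 2.4, against 2.63 to 2.9 elsewhere) and a lower median. EGFR (10.53 to 11.14), EPCAM, CDH1 and KRT5 were high on every array, and ESR1 and PGR did not exceed 2.72. Of the other epithelial markers, CDH3 and KRT19 were at 6.95 or above on every array. KRT18 lay between 4.35 and 5.22 and KRT8 between 3.61 and 4.53, while the basal keratin KRT14 stayed between 1.77 and 2.52. Of markers of other cells, PTPRC, CD3E, VWF, DCN, PDGFRB and COL1A2 stayed below 2.53 on every array, CD68 lay between 4.67 and 6, COL1A1 between 3.1 and 3.56, and CDH5 between 2.18 and 4.64, highest with TNF. The part of these markers in the results was not tested.

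The histone members as a group lay lower in every treated group than in control, and the extent varied between arrays. Each member was first expressed relative to its own control mean. The median over the 61 members was then 0.02, -0.04 and 0.05 on the control arrays. It was -0.33, -0.32 and -0.54 on the TNF arrays, and -0.59 and -0.52 on the apigenin arrays. On the arrays with both agents it was -0.03, -0.36 and -0.59. All TNF and both apigenin arrays thus lay below the controls, whereas 1 of the 3 arrays with both agents, TNF plus apigenin 1, lay among them.

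The same medians over all probe sets tested were between -0.09 and 0.01 with TNF and between -0.15 and 0.04 with both agents. With apigenin they were -0.32 on array 1 and -0.03 on array 2, so the general shift on apigenin 1 accompanies the histone values there, and its part in them was not tested. On apigenin 2 the histone median was -0.52 without such a shift. Members below all 3 controls numbered 51 on apigenin 1 (83.6%, against 61.1% of all probe sets) and 45 on apigenin 2 (73.8%, against 31.7%). They numbered 31, 32 and 43 on the TNF arrays (50.8%, 52.5% and 70.5%, against 30%, 23.5% and 38.2% of all). On the arrays with both agents they numbered 13, 34 and 41 (21.3%, 55.7% and 67.2%, against 22.2%, 23.6% and 45.4%). On TNF plus apigenin 1 this share was thus near that of all probe sets. Members above all 3 controls on that array numbered 10 of 61, beside 33.8% of all. In a bulk sample, fewer cells making histone mRNA and less of it per cell cannot be told apart.

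**Figure D1:**
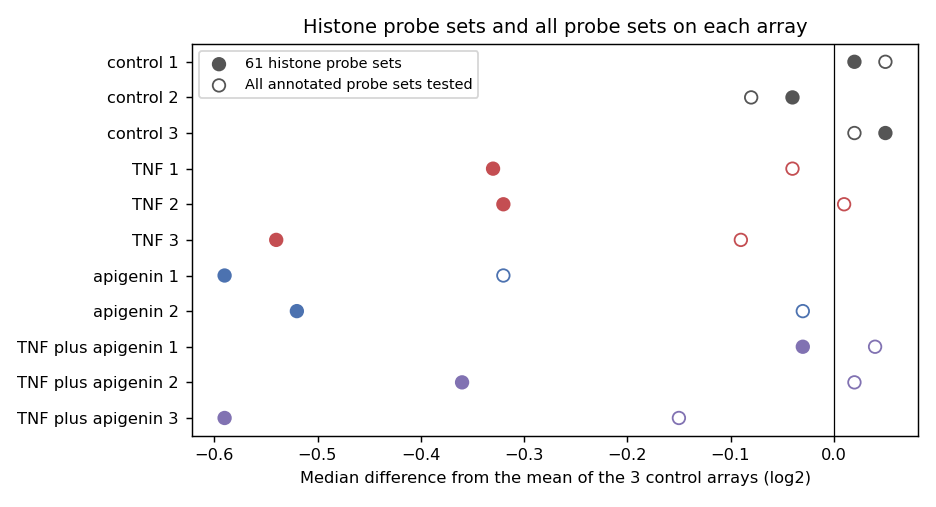
Median difference from the control mean (log2) on each of the 11 arrays, for the 61 histone members tested and for all 18309 probe sets tested. Histone medians on TNF and apigenin arrays lie between -0.59 and -0.32, and that of TNF plus apigenin 1 is -0.03.

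With apigenin alone, 7 of 61 histone members fell and none rose (0.158% of all probe sets were called higher). These were the linker histone gene H1-1, 3 H2A probe sets, the H2B genes H2BC14 and H2BC9, and 1 H3 probe set, and none was an H4 probe set. The count is 11.5% of the members, beside 2.98% of all probe sets tested that were called lower (3.14% in either direction). At an unadjusted p under 0.05, 32 members (52.5%) were lower, beside 16.8% of all, and none was higher, beside 1.98%. For 42 members (68.9%, beside 26.1% of all) both apigenin arrays lay below all 3 controls. The median change of the 61 was -0.591, beside -0.165 for all tested, a difference of -0.426, and 57 members lay below 0, beside 71.4% of all. Without apigenin 1 the median was -0.518, beside -0.0341 for all, and 56 members lay below 0.

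H1-1, a linker histone gene of the chromosome 6 cluster, read 4.15, 4.19 and 4.09 in control, 3.46 and 3.21 with apigenin, 3.53, 3.87 and 3.54 with TNF, and 3.65, 3.41 and 3.29 with both. Every treated array lay below every control array, and the controls differed little among themselves. H1-1 fell by 0.81 ± 0.19 (SE) with apigenin (adjusted p = 0.0332, limma). The other tested linker genes were lower without a call: H1-5 changed in mean by -0.75, H1-2 by -0.54 and H1-4 by -0.49. The testis-specific H1-6 stayed between 1.22 and 1.7 and H1-3 did not exceed 2, so neither was tested.

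H2A pairs with H2B in the nucleosome core, and its probe sets gave both the largest fall and the widest range. Probe set 17005858, which lists H2AC11, H2AC12, H2AC13, H2AC15, H2AC16 and H2AC17, read 6.69, 7.24 and 6.96 in control and 5.65 and 3.62 with apigenin. It read 5.94, 5.58 and 5.81 with TNF and 6.45, 5.56 and 5.46 with both. No treated array reached the controls, and apigenin 2 lay far below every other array. The fall with apigenin was 2.33 ± 0.44 on the log2 scale (5.03-fold, adjusted p = 0.0119, limma), and it was 1.32 with apigenin 1 as the only apigenin array and 3.34 with apigenin 2.

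The other called H2A probe sets both list H2AC4 and H2AC8, whose promoters are printed above. Probe set 17005589 read 5.77, 5.45 and 5.49 in control, 4.6 and 4.67 with apigenin, 5.17, 5.18 and 4.73 with TNF and 5.1, 5.03 and 4.65 with both. All treated arrays lay below the controls, with the apigenin pair and TNF plus apigenin 3 lowest. Probe set 17016366 read 5.1, 4.99 and 5.49 in control, 3.72 and 4.58 with apigenin, 4.58, 4.57 and 4.81 with TNF and 4.76, 4.5 and 4.41 with both. Again no treated array overlapped the controls. Probe set 17005589 fell by 0.94 ± 0.21 (adjusted p = 0.0267) and 17016366 by 1.04 ± 0.25 (adjusted p = 0.0349). Without apigenin 1 the change of 17016366 was -0.62 (adjusted p = 0.344).

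Among H2B genes, H2BC14, which lies between H2AC14 and H4C11, read 5.28, 5.37 and 5.88 in control, 4.21 and 3.14 with apigenin, 4.87, 4.48 and 4.45 with TNF and 5.22, 4.18 and 3.8 with both. Every treated array was below the controls, narrowly so for TNF plus apigenin 1. H2BC14 fell by 1.84 ± 0.37 with apigenin (3.57-fold, adjusted p = 0.0175, limma). H2BC9 read 4.35, 4.2 and 4.59 in control, 2.58 and 3.72 with apigenin, 3.82, 4.47 and 4.47 with TNF and 4.22, 4.34 and 4.03 with both. Here the TNF and combined arrays overlapped the controls and the apigenin arrays did not. H2BC9 fell by 1.23 ± 0.29 (adjusted p = 0.0373), a value that rests on apigenin 1, since it was -0.66 without that array (adjusted p = 0.376). Among the members that were not called, H2BC12 and H2BC21, whose mRNAs are known to occur also with a poly(A) tail, had mean changes of -0.59 and -0.63, and H2BC15 had the highest, 0.49 (adjusted p = 0.552).

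The H3 and H4 pair, which forms the tetramer at the centre of the nucleosome, gave 1 call. H3 probe set 17016400, which lists 10 H3C genes, read 7.31, 7.01 and 6.77 in control, 5.47 and 5.88 with apigenin, 7.05, 6.71 and 5.72 with TNF and 6.73, 6.1 and 5.82 with both. The apigenin arrays lay below the controls, while the TNF arrays ran from the control range down to 5.72. It fell by 1.36 ± 0.35 (adjusted p = 0.0494, limma). All 11 tested H3 probe sets had changes below 0 (median -0.764). Of 12 tested H4 probe sets, 11 lay below 0 (median -0.543), the nearest to a call being 17005535 at -1.13 ± 0.3 (adjusted p = 0.054). Just outside the threshold lay also H3 probe set 17005532 (-0.98, adjusted p = 0.0504).

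The number of calls with apigenin depended on single arrays: it was 1 without control 3, 2 without control 1 and 3 without either apigenin 1 or TNF plus apigenin 2, and only H2A 17005858 was called in each of the 11 fits that left out 1 array. It was 0 when only the control and apigenin arrays were fitted or when probe sets without a gene symbol were included, 1 with array weights, 4 after quantile normalization and 12 with a stricter filter. The 4 after quantile normalization were H1-1, H2A 17005589, H2A 17016366 and H2BC9, without H2A 17005858 and H2BC14.

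**Figure D2:**
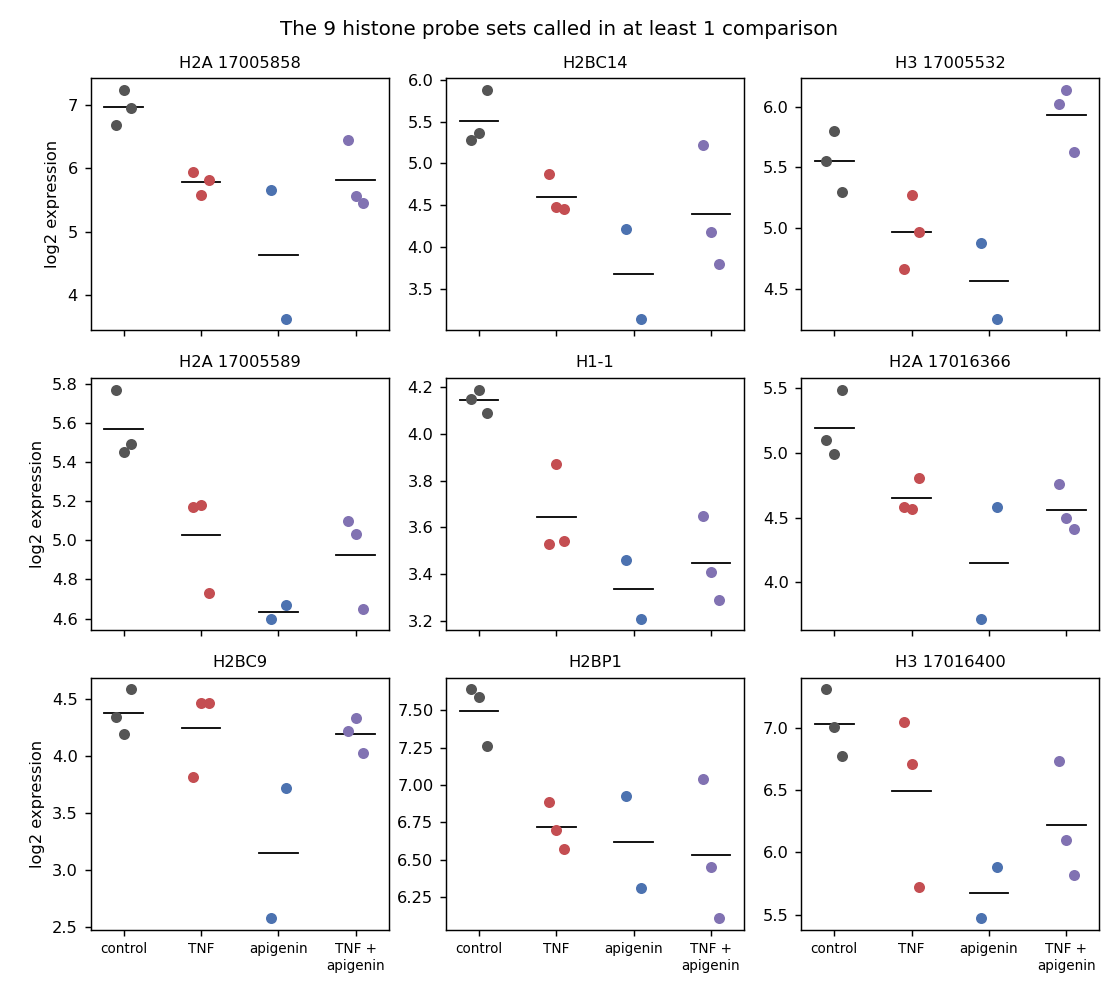
Log2 signal of the 9 histone members called in any comparison, 1 panel each, with 1 point per array and a bar at each group mean. Apigenin points lie below all control points in the 7 members called for apigenin, and the H2A 17005858 point at 3.62 is apigenin 2.

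**Figure D3:**
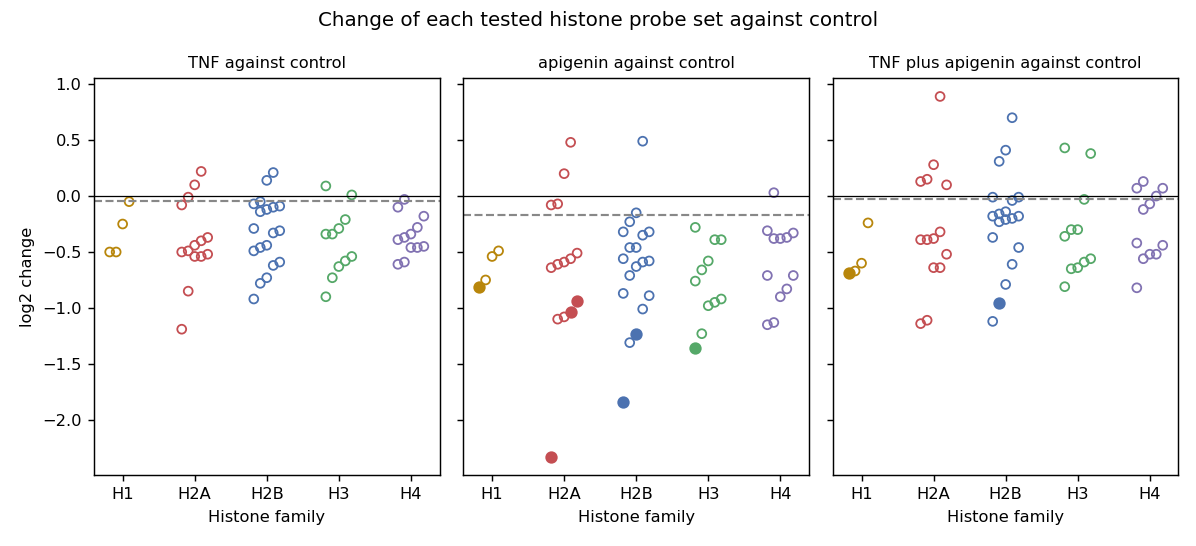
Log2 change of each tested histone probe set (1 point each) by protein family for TNF, apigenin and both against control, with called probe sets filled and a dashed line at the median of all probe sets tested. The probe set listing H2A and H3 genes together is not drawn; with apigenin 57 of the 61 tested members lie below 0.

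With TNF alone no histone member was called, beside 0.634% of all probe sets tested in either direction and 0.18% lower. The members were nonetheless displaced: 54 of 61 lay below 0, beside 58.8% of all, and their median was -0.369, beside -0.0455. At an unadjusted p under 0.05, 18 (29.5%) were lower, beside 4.55% of all, and none was higher, beside 2.86%. The TNF arrays lay wholly below the controls for 20 members, beside 8.82% of all. By family the medians were -0.371 for H1, -0.462 for H2A, -0.313 for H2B, -0.336 for H3 and -0.379 for H4.

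The lowest adjusted p with TNF belonged to H3 probe set 17016503, which lists the same 10 H3C genes. It read 9.73, 9.79 and 9.79 in control, 9.11, 9.09 and 8.89 with TNF, 9.2 and 9.01 with apigenin and 9.52, 9.19 and 8.92 with both. All treated arrays lay below the controls, which differed little among themselves. Its change with TNF was -0.73 ± 0.18 (adjusted p = 0.0977, limma). H2AC21, from the chromosome 1 group, read 7.41, 7.5 and 7.7 in control and 7.14, 6.51 and 6.41 with TNF, a change of -0.85 (adjusted p = 0.333). The comparisons of TNF and of apigenin with control share the 3 control arrays, so a member with high control values is low in both.

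With both agents, 2 members were called lower than in control (3.28%, beside 1.57% of all probe sets called lower and 2.56% in either direction) and none higher (0.989% of all). H1-1, whose values are given above, fell by 0.69 ± 0.17 (adjusted p = 0.0436). H2BP1, a transcribed H2B pseudogene on chromosome 1, read 7.64, 7.59 and 7.26 in control, 7.04, 6.45 and 6.11 with both, 6.89, 6.7 and 6.57 with TNF and 6.93 and 6.31 with apigenin. Every treated array lay below the controls. H2BP1 fell by 0.96 ± 0.24 with both agents (adjusted p = 0.0476, limma), while H2AC21 changed in mean by -1.11 ± 0.28 and missed the threshold (adjusted p = 0.0511).

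The median of the members with both agents was -0.297, beside -0.0228 for all, and 48 of 61 lay below 0, beside 53.6% of all. At an unadjusted p under 0.05, 18 were lower, beside 8.59% of all, and 2 were higher, beside 7.11%. The 2 were H2A probe set 17005787 (0.89, adjusted p = 0.114) and the pseudogene H2BC20P (0.7, adjusted p = 0.286). The count of 2 calls was 4 without TNF plus apigenin 1, and 0 without any 1 control array, TNF 2, TNF 3, or TNF plus apigenin 2 or 3. It was 1 without TNF 1, and 3 without apigenin 1 or apigenin 2. The median of the members was -0.459 without TNF plus apigenin 1, -0.268 without TNF plus apigenin 2 and -0.156 without TNF plus apigenin 3, and the 18 lower members became 29, 10 and 9. Those below 0 became 49, 47 and 43. It was also 0 when only the arrays compared were fitted, 4 after quantile normalization and 9 with array weights.

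Against TNF alone, adding apigenin gave no histone call, beside 1.05% of all probe sets tested. The median of the members was 0.0391, beside 0.0178 for all, and 35 of 61 lay above 0. The sign of that median rested on single arrays: it was -0.12 without TNF plus apigenin 1, with 39 of 61 below 0, and 0.138 without TNF plus apigenin 3, with 16 below 0. At an unadjusted p under 0.05, 5 members were higher, beside 6.1% of all, and none was lower, beside 4.98%. The histone members thus showed shares near the background here. The 1 call gained without apigenin 1 or without apigenin 2 was H3 17005532, described next.

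Against apigenin alone, 1 histone member was called higher with both agents (1.64%, beside 0.486% of all probe sets called higher and 0.524% in either direction). H3 probe set 17005532, listing 10 H3C genes, read 6.02, 6.14 and 5.63 with both and 4.88 and 4.25 with apigenin. It read 4.66, 5.27 and 4.97 with TNF and 5.55, 5.8 and 5.3 in control. The arrays with both agents lay above all arrays with either agent alone and overlapped the controls. H3 17005532 rose by 1.37 ± 0.25 relative to apigenin (adjusted p = 0.0247, limma), and was higher by 0.96 than with TNF (adjusted p = 0.0629). Its adjusted p against apigenin was 0.0625 without apigenin 2 and 0.107 without TNF plus apigenin 1, and the count was 0 without TNF plus apigenin 2 and 2 without apigenin 1. Without adjustment, 13 members (21.3%) were higher at a p under 0.05, beside 13.5% of all, and none was lower, beside 1.59%.

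The interaction asks whether TNF acts alike with and without apigenin, and is above 0 where the difference from control with both agents lay above the sum of the differences with each alone. No histone member was called, beside 0.0218% of all probe sets tested. The estimates of 59 of 61 members lay above 0 and 2 (3.28%) below, beside 24.5% of all below 0 (median 0.689, beside 0.217 for all). Without adjustment, 24 (39.3%) were above 0 at a p under 0.05, beside 7.06% of all, and none was below, beside 1.04%. The same control, TNF and apigenin arrays enter these estimates and the comparisons above.

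The highest-ranked members were H3 17005532 (1.94 ± 0.34, adjusted p = 0.0896), H2A 17005858 (2.38 ± 0.59, adjusted p = 0.328) and H4 17016406 (1.64 ± 0.42, adjusted p = 0.339). H4 17016406 read 4.27, 3.8 and 4.97 in control, 3.83, 3.93 and 4.18 with TNF, 3.56 and 2.84 with apigenin and 4.79, 4.46 and 4.17 with both. Only the apigenin arrays lay below the control range. H2BC5 read 5.13 on all 3 control arrays, 4.67, 5.06 and 4.79 with TNF, 4.65 and 4.97 with apigenin and 5.83, 5.64 and 5.13 with both. H2BC5 was thus below control with either agent and at or above control with both, with an interaction of 1.02 (adjusted p = 0.476). The value 5.13 recurs on all 3 control arrays and on TNF plus apigenin 3. The control spread of 0 is therefore no guide to the precision of these differences, and the origin of the repeat was not tested. Without apigenin 1 the interaction of H2A 17005858 was 3.39 (adjusted p = 0.031, limma), 1 call where there was none, and without apigenin 2 it was 1.36.

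**Figure D4:**
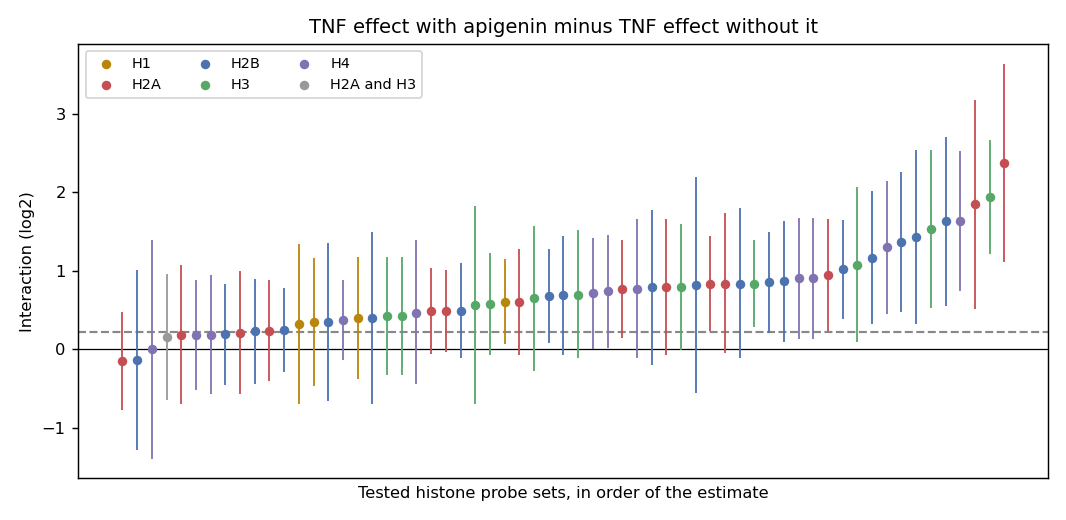
Interaction estimate (log2) of each of the 61 tested histone members, ordered by value, with bars for the 95% interval from limma. Of the 61 estimates, 59 lie above 0, and the highest is H2A 17005858 at 2.38.

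Probe sets that list the same genes did not behave as 1. The 5 tested probe sets of H2AC11, H2AC12, H2AC13, H2AC15, H2AC16 and H2AC17 ranged from -2.33 to 0.48 with apigenin, and the 8 tested H3 probe sets of the same 10 H3C genes from -1.36 to -0.58. The 12 tested H4 probe sets, each listing the same 14 genes, ranged from -1.15 to 0.03, and the 5 of H2BC4, H2BC6, H2BC7, H2BC8 and H2BC10 from -1.31 to -0.32. An H3 pair (16670387 and 16692616) and an H4 pair (16670377 and 16692626) held identical values on every array, which leaves 59 distinct members tested. Counted once, 55 of 59 lay below 0 with apigenin and 52 of 59 with TNF.

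Within each family, the members that varied most between groups by the moderated F statistic were H1-1, H2A 17005858, H2BC14, H3 17005532 and H4 17016406. Those that varied least were H1-2, H2AC1, H2BC18 (probe set 16692603), H3 16670387 and H4 17016360. H2AC1, a testis-specific H2A gene, stayed between 1.79 and 2.63, and the H2BC18 probe set between 2.39 and 3.21, both near the filter. H4 17016360 read 3.65, 1.85 and 4.11 in control, a spread wider than its distance to any treated group.

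The 13 members that were not tested were H1-3, H1-6, H2AC12, H2AC25, H2AC2P, H2BC1, H2BC11, H2BC18 (probe set 16692611), H3-4, H3 17005539, H4C7, H4 17005596 and H4 17005790. H1-6, H2BC1 and H3-4 are testis-specific variants. H2BC18 probe set 16669443 passed the filter through control arrays only, so its lower values after treatment were partly fixed by the filter. It is among the members counted above, with TNF and with apigenin, as lower without adjustment and as lying wholly below the controls. With no filter, 62 of all 74 members lay below 0 with TNF, beside 57.8% of all annotated probe sets, and 61 with apigenin, beside 64.4%. The 43 members at or above 2.53 on all 11 arrays had a median of -0.708 with apigenin, beside -0.207 for all probe sets of that kind.

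Genes that act with the clustered histones were listed separately. Of 10 tested replication-independent histone probe sets, none was called in any comparison, with a median of -0.358 with apigenin and -0.041 with TNF. At an unadjusted p under 0.05, 5 of the 10 were lower with apigenin, beside the 52.5% of the members and 16.8% of all, and none with TNF. Of 20 tested genes of histone transcription and 3′ end processing, none was called. Their median was -0.25 with apigenin, beside -0.165 for all, and 0.0256 with TNF, beside -0.0455. Without adjustment, 1 was lower and 1 higher with apigenin, beside 16.8% and 1.98% of all. Of 23 tested chaperone probe sets, 1 was called: ASF1A, which carries H3 and H4 to the assembly machinery, fell by 1.04 ± 0.25 with apigenin (adjusted p = 0.0362, limma). A single call among 23 is near the 3.14% of all probe sets called with apigenin. Without adjustment, 6 of the 23 were lower with apigenin, beside 16.8% of all.

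Of 24 tested S phase replication genes none was called, with medians of -0.159 with apigenin, beside -0.165 for all, and -0.107 with TNF. At an unadjusted p under 0.05, 1 of the 24 was lower with apigenin, beside 16.8% of all, and none with TNF, beside 4.55%. With both agents 6 of the 24 were higher than in control, beside 7.11% of all, and none was lower (median 0.186, beside -0.0228). Against TNF alone 7 were higher with both agents, beside 6.1% of all, and none was lower (median 0.23, beside 0.0178). Of 11 tested genes that lie within or beside the chromosome 6 cluster but encode no histone, none was called, with medians of -0.206 with apigenin and 0.0208 with TNF. At an unadjusted p under 0.05, 3 of the 11 were lower with apigenin, beside 16.8% of all, and none with TNF. With both agents 2 were lower than in control, beside 8.59% of all.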

How the data were processed

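The values deposited by the authors were log2 signals of 53617 probe sets on 11 arrays. Per the submitters' processing notes the software was Affymetrix Expression Console; for its version, algorithm and annotation build, the entry is not given in the sources used here. Their log base was inferred from the range (0.38 to 12.3). Groups came from sample titles. The array's annotation table gave 1 symbol for 23871 probe sets and several for 1842; the other 27904 were not tested.

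Group means over all 11 arrays were estimated together with limma 3.58.1 in R 4.3.3 (lmFit and eBayes, 7 residual degrees of freedom), with 5 comparisons and the interaction. P-values were two-sided and adjusted by Benjamini-Hochberg over 18309 probe sets. Intervals are 95%, and errors of changes are moderated standard errors. The filter and threshold are given above. The script was tested on simulated data.

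The histone members, the lists, the alternatives and the rule for named members (every called member, and the most and least variable of each family) were chosen with earlier results of these data known. Further members near the threshold, or shown for their interaction, were named after their values were seen, and printed promoters were limited to called members listing 1 or 2 genes at that point. The number of arrays limits the precision. Alternatives covered filters, scaling, array weights, the probe sets and arrays fitted, the variance model and a replicate block.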

Additional observations from a re-analysis of the deposited data

How the results depend on the processing

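No called change reversed under any alternative. The compared groups of arrays did not overlap for any called change, so leaving out arrays or changing the filter could not reverse it. The number of histone members called varied. With TNF it was 0, and 1 with array weights, limma trend, quantile normalization or only the compared arrays; leaving out any array gave 0. With apigenin it was 7, and 0 with all probe sets of the table or only the compared arrays, 1 with array weights, 3 without control 2 and apigenin 1, 4 with quantile normalization and 12 with the stricter filter; leaving out 1 array gave 1 to 9. For TNF plus apigenin against TNF it was 0, and 2 with array weights and 1 with quantile normalization, the stricter filter or control 2 and apigenin 1 left out; leaving out 1 array gave 0 to 1. For TNF plus apigenin against control it was 2, and 0 with all probe sets or only the compared arrays, 1 with no filter or without control 2 and apigenin 1, 4 with quantile normalization and 9 with array weights; leaving out 1 array gave 0 to 4. For TNF plus apigenin against apigenin it was 1, and 0 with all probe sets, array weights, only the compared arrays or quantile normalization, and 2 without control 2 and apigenin 1; leaving out 1 array gave 0 to 2. The interaction gave 0, and 1 with the stricter filter or without control 2 and apigenin 1; leaving out 1 array gave 0 to 1. The cause was not tested. Over all probe sets, calls with apigenin went from 574 to 96 without apigenin 1 and 89 with only the compared arrays. After quantile normalization the apigenin medians were -0.463 for the members and -0.0203 for all. Medians and counts of members below 0 with apigenin 1 or a TNF plus apigenin array left out were added after seeing the data. The titles number the replicates. Deviations from the group means correlated at -0.232 to 0.287 over 15 pairs of the same number (median 0.0314). Over 30 pairs of different number they correlated at -0.404 to 0.197 (median -0.0172). The highest correlations were of arrays of the same number: control 3 with TNF 3 (0.287) and TNF 3 with TNF plus apigenin 3 (0.263). The lowest was of TNF 3 with TNF plus apigenin 1 (-0.404). Deviations sum to 0 within a group, so these ranges do not settle whether arrays were paired. With the replicate number as a block, 15 members were called with apigenin, 6 of them among the 7.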

Other observations

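By chromosome, 36 tested members listed genes of chromosome 6 only and 13 of chromosome 1 only. With apigenin, 33 of the 36 and 13 of the 13 lay below 0 (medians -0.652 and -0.457), and all 7 calls were on chromosome 6. With TNF, 31 of the 36 and 11 of the 13 lay below 0 (medians -0.385 and -0.369). The difference between chromosomes was not tested.

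Members listing 1 gene and members listing several gave similar medians with apigenin, -0.591 over 24 and -0.663 over 37, with 3 and 4 calls. Of the 61 tested members, 20 had their lowest value on apigenin 1, 15 on apigenin 2 and none on control 3 or TNF plus apigenin 1.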
